A study of Mus musculus with 8 samples.

Results

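Cycling natural killer (NK) cells were the cells of the NK cell gate that held at least 1 transcript each of Mki67 and Top2a. They numbered 72 of 1837 gated NK cells (3.92%, 95% Clopper-Pearson interval 3.08–4.91%), which were themselves drawn from 12828 cells that passed quality filters and 15700 cell barcodes in all. The gate asked for at least 1 unique molecular identifier (UMI, a tag that counts captured RNA molecules) of Ncr1 (NKp46, an activating receptor of NK cells), none of Cd3e, Cd3d, Cd3g, Cd8b1 or Cd79a, and fewer than 5 of Lyz2. NK cells with neither Mki67 nor Top2a (1543 cells) were the non-cycling comparison, and 222 cells with only 1 of the genes were kept apart from both classes. The cells were thus selected on measured transcripts, so how far gate genes and the genes of the replication, mitosis, histone and other cell cycle lists differ between cycling and non-cycling NK cells is a description here. The fit covered these lists too, but no call of theirs is read, except for whether the difference was alike in NK cells and in CD8+ T cells split by the same genes.

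The cells came from C57BL/6 mice carrying B16-OVA melanoma, a tumor line made to express ovalbumin, which the OT1 T-cell receptor recognizes. Mice received OT1 CD8+ T cells on days 12 and 15 after tumor inoculation without lymphodepletion, and CD45+ tumor-infiltrating cells enriched for CD8+ cells were sorted from pooled tumors of 5 mice per condition and profiled by 5′ single-cell RNA sequencing. OT1 cells were untransduced (day 5 and day 12 after transfer), secreted a PD-1 decoy (PD1d, the PD-1 ectodomain joined to an Fc) with IL-2v (an IL-2 variant that does not engage CD25; day 12), secreted PD1d with the alarmin IL-33 (day 12), or were an equal mix of PD1d/IL-2v and PD1d/IL-33 cells (PD1d/IL-2v/IL-33; days 5, 12 and 26), and 1 library came from non-treated mice (day 5). Every condition and day is a single library, so differences between conditions cannot be told apart from differences between libraries, sequencing runs or pools, and intervals cover counting error only. The libraries held between 1387032 UMIs (untransduced day 12) and 24917112 UMIs (PD1d/IL-2v/IL-33 day 26). The engineered molecules were made by the transferred T cells, and NK cells were host cells of the tumor. The sort enriched for CD8+ cells, so the NK share of a library reflects that sort as well as the tumor.

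NK cells are innate lymphocytes that kill stressed or transformed cells through perforin and granzymes and secrete interferon-γ and chemokines. IL-15 and IL-2, through the shared β (Il2rb) and γ (Il2rg) receptor chains, sustain their survival and can drive them to divide. A dividing cell first switches on genes of DNA replication under E2F transcription factors (S phase), then genes of the mitotic spindle and chromosome segregation (G2 and M phase), many of which are held off in resting cells through a cell cycle genes homology region (CHR) bound by the DREAM complex.

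Promoter sequences of genes that define or characterize the cells are shown because the Mki67 and Top2a transcripts set the gate and both belong to the G2/M program, whereas Mcm6, a subunit of the replicative helicase, belongs to the S phase program. Kif15, a mitotic kinesin, is shown because its difference between cycling and non-cycling cells was not alike in NK and CD8+ T cells. Each is a RefSeq window on GRCm38.p6 from 250 bases before to 50 bases after the gene start, printed 5′ to 3′ on the gene's strand, with capitals marking matches on either strand to the CHR letters TTTGAA or TTCGAA, to CCAAT (the NF-Y box), or to the E2F letters TTTGGCGC or TTTCCCGC. Matches can overlap or adjoin, in which case the capitals run together. The windows lie at chr7:135716330-135716629 (minus strand) for Mki67, chr11:99024140-99024439 (minus) for Top2a, chr1:128359656-128359955 (minus) for Mcm6 and chr9:122950831-122951130 (plus) for Kif15.
Mki67: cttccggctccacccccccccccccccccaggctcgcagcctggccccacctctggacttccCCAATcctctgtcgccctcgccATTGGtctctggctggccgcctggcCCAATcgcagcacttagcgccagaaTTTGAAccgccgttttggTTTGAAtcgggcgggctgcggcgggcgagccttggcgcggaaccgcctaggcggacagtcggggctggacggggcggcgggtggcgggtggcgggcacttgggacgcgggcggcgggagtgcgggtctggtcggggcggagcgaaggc
Top2a: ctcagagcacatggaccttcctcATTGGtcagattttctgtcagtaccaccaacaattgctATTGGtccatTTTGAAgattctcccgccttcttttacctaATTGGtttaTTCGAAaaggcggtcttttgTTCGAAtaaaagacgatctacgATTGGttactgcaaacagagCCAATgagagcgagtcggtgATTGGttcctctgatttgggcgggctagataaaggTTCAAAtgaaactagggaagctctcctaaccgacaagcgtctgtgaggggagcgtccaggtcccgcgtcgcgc
Mcm6: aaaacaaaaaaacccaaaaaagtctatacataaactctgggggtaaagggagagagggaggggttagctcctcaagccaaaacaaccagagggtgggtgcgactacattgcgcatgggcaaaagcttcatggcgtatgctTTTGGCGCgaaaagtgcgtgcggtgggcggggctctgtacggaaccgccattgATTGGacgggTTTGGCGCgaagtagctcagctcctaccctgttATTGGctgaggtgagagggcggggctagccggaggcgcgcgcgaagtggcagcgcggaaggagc
Kif15: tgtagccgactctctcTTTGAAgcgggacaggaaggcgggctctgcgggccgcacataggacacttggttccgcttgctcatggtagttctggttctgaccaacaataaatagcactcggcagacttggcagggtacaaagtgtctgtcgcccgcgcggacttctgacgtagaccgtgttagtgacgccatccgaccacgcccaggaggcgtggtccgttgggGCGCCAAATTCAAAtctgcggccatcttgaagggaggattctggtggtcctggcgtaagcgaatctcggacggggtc

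Of the 54 listed G2/M genes, 47 had a window, and 36 of them (76.6%) held the CHR letters and 36 (76.6%) held CCAAT. Among 32 listed S phase genes with a window, 7 (21.9%) held the CHR letters, 23 (71.9%) held CCAAT and 12 (37.5%) held the E2F letters, against 2 of 47 (4.26%) G2/M genes for the E2F letters. Of all 27025 genes with a window, 21.7% held the CHR letters, 41.1% CCAAT and 1.8% the E2F letters, so that the CHR share of the S phase genes was that of all genes. A match describes letters only. The windows of Ncr1, Birc5 and Tk1 held none of these letters.

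Most cycling cells carried a further cell cycle marker, and NK markers were read on summed UMIs. Birc5 (survivin, a subunit of the chromosomal passenger complex), which was not used for gating, was present in 56 of 72 cycling cells (77.8%), in 13 of 222 cells with 1 gate gene (5.86%) and in 17 of 1543 non-cycling cells (1.10%). The gate itself required Mki67, Top2a and Ncr1. The median cycling cell held 5 UMIs of Mki67 (range 1–21), 5.5 of Top2a (1–28) and 2 of Ncr1 (1–19). Ncr1 rested on a single UMI in 29 of 72 cycling cells (40.3%) and in 441 of 1543 non-cycling cells (28.6%). The sums that follow do not show how many cells carry other NK markers. The 18 genes of the NK identity list other than Ncr1 were all detected in the cycling cells, with a summed level of 9421 CPM (UMIs of a gene scaled to the same total of UMIs in each class), against 14906 CPM in non-cycling NK cells and 4116 CPM in cycling CD8+ T cells. T cell markers outside the gate summed to 181 CPM in cycling NK cells (7 of 11 genes, mainly Cd28 with 115 UMIs), to 148 CPM in non-cycling NK cells and to 1560 CPM in cycling CD8+ T cells. No UMI of 6 melanoma markers was found in the 72 cells.

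Cycling cells were deep. Their median was 11882.5 UMIs and 3128 genes, against 5108 UMIs and 1853 genes in non-cycling NK cells, and the same order held in each of the 4 libraries with cycling cells. Median UMIs of cycling and non-cycling cells were 17664.5 and 4757 in untransduced day 5, 12718.5 and 6178 in PD1d/IL-2v day 12, 9146 and 5159 in PD1d/IL-2v/IL-33 day 5, and 15669 and 6848 in PD1d/IL-2v/IL-33 day 12. Doublets were not removed, and the doublet caller marked under 0.5% of the cells, too few to rely on. The 6% of cells with the highest doublet scores included 10 of 72 cycling NK cells (13.9%) and 18 non-cycling NK cells (1.17%), and their part in the results was not tested beyond the alternatives given below. Although 143 barcode sequences occurred in more than 1 library, none was that of a cycling NK cell.

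Cell cycle transcripts varied widely among the cells. Summed over 140 listed cell cycle genes other than Mki67 and Top2a, the median cycling cell held 292 UMIs per 10000 (range 22.4–556), whereas non-cycling cells held 48.5 and cells with 1 gate gene 49.5. S phase genes reached a median of 36.9 UMIs per 10000 and G2/M genes 96.2, against 7.48 and 12.9 in non-cycling cells. G2/M UMIs exceeded S phase UMIs in 55 of the 72 cells and the opposite held in 16, beside 1115 and 302 of the 1543 non-cycling cells. At the edge of the gate, the 9 cells with a single UMI of each gene had a median of 54.3 cell cycle UMIs per 10000 (22.4–178), close to the 49.5 of the cells with 1 gate gene that fell just outside, and Birc5 was found in 0 of the 9. By their median, these 9 cells carried little sign of the label beyond the gate genes. Their S phase UMIs per 10000 ranged from 0.80 to 69.2, so some lay well above the non-cycling median of 7.48. The plot of S phase against G2/M UMIs shows this spread.

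**Figure D1:**
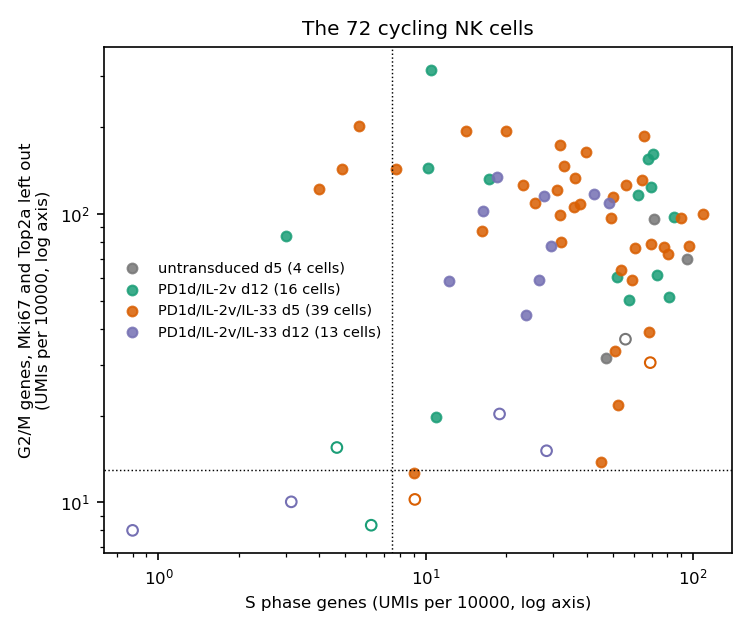
Each point is 1 of the 72 cycling NK cells, placed by its S phase (x axis) and G2/M (y axis) UMIs per 10000 UMIs on log axes and colored by library, with open points for the 9 cells holding a single UMI each of Mki67 and Top2a. Dotted lines mark the medians of non-cycling NK cells (7.48 and 12.9), and most cycling cells lie above both, around medians of 36.9 and 96.2.

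Cycling NK cells were found in 4 of the 8 libraries, and 68 of the 72 came from 3 libraries of tumors that received IL-2v-secreting cells. The day 5 PD1d/IL-2v/IL-33 library held 39 of 554 NK cells in cycle (7.04%, 5.05–9.50%) and the day 12 library of the same mix held 13 of 201 (6.47%, 3.49–10.8%). The PD1d/IL-2v library of day 12 held 16 of 440 (3.64%, 2.09–5.84%), and untransduced OT1 cells on day 5 gave 4 of 387 (1.03%, 0.282–2.63%). The intervals of these first 3 overlapped, and the interval of the untransduced library lay below those of both PD1d/IL-2v/IL-33 libraries.

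No cycling NK cell was found in 65 NK cells of non-treated mice, which allows a share of up to 4.62%, in 42 of untransduced day 12 (up to 7.14%), in 84 of PD1d/IL-33 day 12 (up to 3.57%) or in 64 of PD1d/IL-2v/IL-33 day 26 (up to 4.69%). These limits are those that 3 counts give. The Clopper-Pearson bounds of the same libraries are 5.52%, 8.41%, 4.30% and 5.60%, all above the 3.64% of the PD1d/IL-2v library. The day 26 library, with no cycling NK cell, also came from tumors that received IL-2v-secreting cells.

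Depth bears on detection of these genes. When every cell was thinned to 2000 UMIs, 25 of 554 (4.51%), 5 of 201 (2.49%) and 6 of 440 (1.36%) cells stayed in the gate in the same 3 libraries, and none did elsewhere. The order of these 3 libraries was the same thinned and unthinned. With the cells of high doublet score removed, untransduced day 5 kept 1 of its 4 cells (0.262%).

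**Figure D2:**
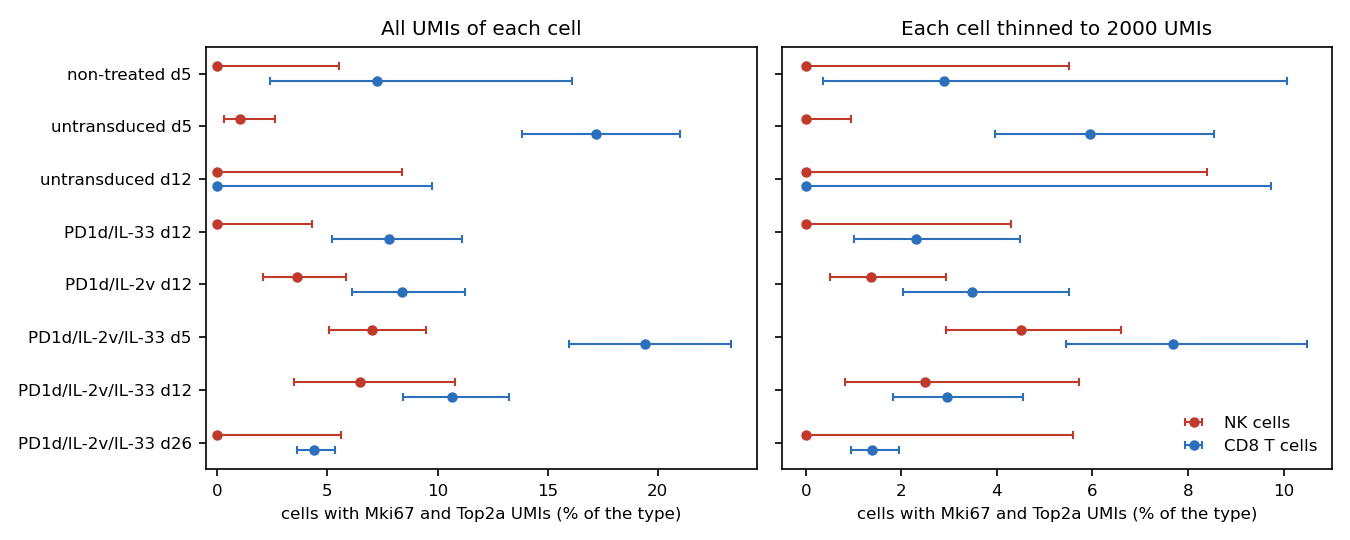
Share of cycling cells (x axis, percent of the cell type) among NK cells (red) and CD8+ T cells (blue) in each of the 8 libraries (y axis), from all UMIs (left panel) and with each cell thinned to 2000 UMIs (right panel), with 95% Clopper-Pearson intervals as bars and a different x scale in each panel. Unthinned NK shares reach 7.04%, 6.47% and 3.64% in 3 IL-2v libraries, 1.03% in untransduced day 5 and 0 elsewhere, whereas CD8+ shares are above 0 in 7 of 8 libraries.

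In the same libraries, CD8+ T cells gated on Cd3 and Cd8b1 cycled more often. Of 4784 CD8+ T cells 413 were in cycle, with shares of 7.25% in non-treated mice, 17.2% in untransduced day 5, 0 in untransduced day 12, 8.40% in PD1d/IL-2v, 7.78% in PD1d/IL-33, and 19.4%, 10.7% and 4.40% in PD1d/IL-2v/IL-33 at days 5, 12 and 26. After thinning, the NK share was lower by a mean of 2.29 percentage points (SD 1.85, n = 8 libraries), lower in 7 of 8 libraries and at 0 in both lineages in untransduced day 12. The genes that define cycling set this share, and it is given as a description. PD1d/IL-33 day 12 and PD1d/IL-2v/IL-33 day 26 had cycling CD8+ T cells (27 and 99 cells) and no cycling NK cells.

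Cycling and non-cycling NK cells were compared gene by gene on UMI sums in the 3 libraries with at least 10 cells of each class, with the library as a block. These were PD1d/IL-2v day 12 (16 cycling, 356 non-cycling cells), PD1d/IL-2v/IL-33 day 5 (39 and 428) and PD1d/IL-2v/IL-33 day 12 (13 and 161), and values below are CPM in that order. Of 7122 genes tested, with gate genes left out, 849 (11.9%) passed an adjusted p of 0.05 in edgeR's quasi-likelihood test with Benjamini-Hochberg adjustment. The split was 565 (7.93%) higher and 284 (3.99%) lower in cycling cells, of which 446 and 284 were outside the cell cycle lists. In 825 genes (11.6%) all 3 cycling sums lay above all non-cycling sums, and in 386 (5.42%) they lay below. The median log2 fold change of all genes was −0.03. SE is the absolute log2 fold change divided by the square root of the test's F statistic, whose variance is moderated over genes. It does not measure the spread of log2 ratios between the 3 libraries. Levels compare cells within a gene, since 5′ counts are not per length.

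Differences in the replication and mitosis lists are tied to the gate, which used G2/M genes, and fitted folds over non-cycling levels near 0 depend on the prior count, so the medians are not read against each other. G2/M genes had a median log2 fold change of 4.86 over 45 fitted genes, S phase genes 2.62 over 40, histone genes 2.94 over 16 and other cell cycle genes 3.67 over 26. Birc5 stood at 553, 355 and 282 CPM in cycling cells and at 2.08, 1.25 and 2.90 CPM in non-cycling cells. Rrm2, the regulatory subunit of ribonucleotide reductase, stood at 404, 259 and 82.9 CPM against 4.15, 2.08 and 3.63 CPM. Neither gene passed 4.15 CPM in the non-cycling cells of these 3 libraries.

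Other cell cycle genes were not confined to cycling cells. Pcna, the sliding clamp of DNA polymerase, had 259, 265 and 211 CPM in cycling cells and 34.1, 50.3 and 82.0 CPM in non-cycling cells. Hmgb2, a chromatin protein abundant in proliferating cells, had 3206, 2871 and 1899 CPM against 336, 284 and 263 CPM. H2afz, a replication-independent histone variant, differed less, at 2466, 2775 and 2583 CPM against 906, 830 and 830 CPM. Hist1h1b, a linker histone transcribed in S phase, differed between libraries, at 629, 161 and 74.6 CPM in cycling cells. The lowest cell cycle level by cell was in the day 12 mix, whose 13 cells had a median of 196 cell cycle UMIs per 10000 against 286 and 298 in the other 2 libraries. Of its 13 cells 4 were at the edge of the gate with a single UMI of each gene, against 2 of 16 and 2 of 39.

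**Figure D3:**
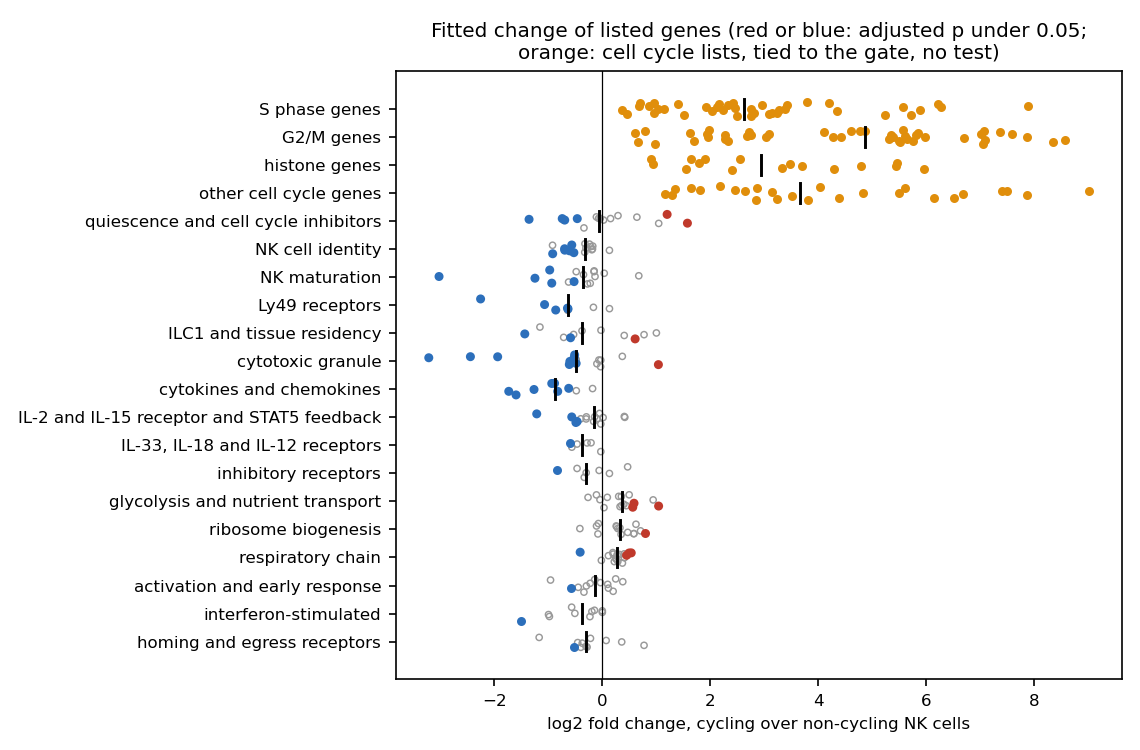
Each point is a gene of a list (y axis) at its fitted log2 fold change between cycling and non-cycling NK cells in 3 libraries (x axis); black bars are list medians, red or blue points passed an adjusted p of 0.05, and orange points belong to cell cycle lists, for which no test is read. Cell cycle medians lie between 2.62 and 4.86, cytokines and chemokines at −0.88, Ly49 receptors at −0.64 and glycolysis at 0.36. Against non-cycling cells matched on depth, not plotted, the medians were −0.27 for cytokines and chemokines, −0.28 for Ly49 receptors and −0.18 for glycolysis.

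Outside the cell cycle lists, 730 of 6995 genes (10.4%) passed, 446 (6.38%) higher and 284 (4.06%) lower. The higher genes still include some that are tied to the gate but in no list, as named further down. The 6.38% counts them wherever it stands beside a list. Regulators of the G1 phase moved in both directions, with 2 of 16 tested genes of the quiescence and inhibitor list higher and 4 lower. Ccnd2, the cyclin D that carries mitogen signals in G1, had 76.5, 145 and 112 CPM in cycling cells and 197, 337 and 287 CPM in non-cycling cells, and fell by 1.36 on the log2 scale (SE 0.17, adjusted p = 1.1e-06). The classes did not overlap, and Ccnd2 passed the test in 13 of 13 alternative settings. Cdkn2c, an inhibitor of the cyclin D kinases, rose (59.5, 96.0 and 62.2 CPM against 39.0, 17.0 and 19.6 CPM, log2 fold change 1.58, SE 0.32, adjusted p = 0.00067). Cdkn1a (p21), an inhibitor of cyclin-dependent kinases, also rose by 1.20 (SE 0.23, adjusted p = 0.00051), but its log2 fold change was 0.02 against non-cycling cells of matched depth. Btg1, an anti-proliferative gene, Btg2, its relative, and Txnip, which restrains thioredoxin, were the others that fell. Txnip was not lower in CPM in the day 12 mix. Matched on depth, 2 of 13 genes of the list were higher and 1 lower.

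The calls that follow depend on the choice of non-cycling cells and on the fit. Against non-cycling cells of the same library matched on UMIs, which brought the median to 12731, 9141 and 15595 UMIs, 3051 genes could be tested, of which 175 were called higher and 164 lower. Matching also cut the non-cycling cells to 16, 39 and 13, so calls lost with matching cannot be put down to depth alone. With DESeq2 73 were lower, and without the library block 13. CPM is a share of a cell's UMIs, and a gene can be lower in CPM in a cell that holds more of its UMIs. Of 53 listed genes called lower, 17 had more UMIs per cell in cycling than in non-cycling cells in all 3 libraries and 12 had fewer in all 3. Where matching turned the direction of a gene that passed, the matched value stands beside it, and calls lost with matching are counted by list. Single-gene calls of the main fit can thus be lost without a remark at the gene.

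Some genes of NK identity took a smaller share of UMIs in cycling cells. Of 17 tested genes besides Ncr1, 6 fell, beside 4.06% of all genes outside the cell cycle lists, and none rose. The median log2 fold change was −0.33, against −0.04 over all those genes. Matched on depth, 3 of 16 were lower and the median was −0.0606. Tyrobp (DAP12), the adaptor that transmits signals of activating NK receptors, had 1671, 1512 and 1667 CPM in cycling cells and 3646, 2365 and 2889 CPM in non-cycling cells, and fell by 0.92 on the log2 scale (SE 0.10, adjusted p = 1.2e-07). All cycling sums lay below all non-cycling sums, and matched on depth Tyrobp was −0.82. Fcer1g, the other signaling adaptor, fell by 0.70 (SE 0.10, adjusted p = 1.2e-05; 1828, 1266 and 1522 CPM against 3215, 1660 and 2459 CPM).

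Nkg7, a granule membrane protein, Klrd1 (CD94), Klrb1c (NK1.1) and Il2rb were the other identity genes that fell, with log2 fold changes between −0.70 and −0.53. Klrb1c was 0.08 when matched on depth. Ncr1 was 378, 228 and 191 CPM in cycling cells and 864, 371 and 291 CPM in non-cycling cells, a gate gene and so only a description. Eomes, the T-box factor of NK cells, had 183, 226 and 166 CPM against 215, 244 and 165 CPM and did not pass (log2 fold change −0.18, SE 0.16, adjusted p = 0.56), nor did Tbx21 (T-bet; −0.58, SE 0.21, adjusted p = 0.075). Without the library block, none of the identity genes passed.

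The maturation list was led downward by Ly6c2, which encodes a Ly6C surface antigen of mature NK cells. It had 0, 5.19 and 24.9 CPM in cycling cells and 93.0, 69.4 and 61.7 CPM in non-cycling cells (log2 fold change −3.02, SE 0.45, adjusted p = 1.2e-05), with no overlap between the classes and fewer UMIs per cell in cycling cells in all 3 libraries. In all, 5 of 15 tested genes fell, beside the same 4.06% of all genes, and none rose, but 2 of 9 were lower with matched depth (median −0.0686 against −0.35), 2 with DESeq2 and 1 without the block. Itgam (CD11b), a marker of mature NK cells, had 8.50, 28.5 and 53.9 CPM against 36.6, 106 and 53.0 CPM (−1.25, SE 0.33, adjusted p = 0.011) and was level in the day 12 mix. Zeb2, a factor needed for terminal maturation, and Xcl1 were also among those that fell, whereas Cd27 and Klrg1, whose surface levels stage maturation, did not pass (−0.35, SE 0.27, and −0.15, SE 0.25).

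Ly49 receptors, which bind MHC class I and related ligands, fell in 5 of 8 tested genes, beside 4.06% of all genes outside the cell cycle lists, with a list median of −0.64. Klra9 had 0, 75.2 and 20.7 CPM in cycling cells and 176, 186 and 132 CPM in non-cycling cells (log2 fold change −2.25, SE 0.34, adjusted p = 1.3e-05). Klra8 (Ly49H) had 140, 220 and 178 CPM against 391, 422 and 280 CPM (−1.07, SE 0.16, adjusted p = 2e-05). Neither gene's classes overlapped, and both were lower in every library. Klra3, Klra4 and Klra7 fell by 0.86, 0.65 and 0.63 on the log2 scale, though Klra7 was not lower in CPM in the day 12 mix. Ly49 genes are near-identical paralogs among which reads may be split, each is carried by a part of NK cells only, and none passed with depth matched or without the block (Klra9 −1.15 and Klra8 −0.46 when matched).

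Among genes of type 1 innate lymphoid cells and tissue residency, Cd69, an early activation and retention marker, rose (183, 143 and 112 CPM against 88.1, 96.4 and 88.5 CPM, log2 fold change 0.61, SE 0.19, adjusted p = 0.037). It was higher in all 3 libraries and stood at 1.18 when matched on depth, but it passed in only 6 of 13 alternative settings, and not with DESeq2 (adjusted p = 0.37) or without the block (adjusted p = 0.38). Itga1 (CD49a) fell by 1.44 and Rgs1, a regulator of chemokine receptor signaling, by 0.59, and the other 8 of 11 tested genes did not pass (6.38% of all genes outside the cell cycle lists were higher and 4.06% lower). Matched on depth, 3 genes of the list could be tested, of which 1 was higher.

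Cytotoxic genes stayed abundant in cycling cells, and several took a smaller share of UMIs. Of 15 tested genes of the granule list, 8 fell (4.06% of all genes outside the cell cycle lists), 1 rose (6.38% of all) and the median was −0.48, with 3 of 12 lower and a median of −0.37 when matched on depth, 3 lower with DESeq2 and none without the block. Gzma, the most abundant granzyme transcript, had 5583, 6177 and 8934 CPM in cycling cells and 10927, 9563 and 7589 CPM in non-cycling cells (log2 fold change −0.52, SE 0.12, adjusted p = 0.003). It was lower in 2 libraries and higher in the day 12 mix, and was 0.17 when matched on depth. Per cell, Gzma reached 82.1, 61.1 and 166 UMIs in cycling and 73.9, 53.8 and 65.0 UMIs in non-cycling cells.

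Gzmb had 1250, 1605 and 1625 CPM in cycling cells and 2111, 2249 and 1744 CPM in non-cycling cells (−0.51, SE 0.11, adjusted p = 0.0012), without overlap, and 18.4, 15.9 and 30.2 UMIs per cycling cell against 14.3, 12.6 and 14.9. Prf1, the pore-forming perforin, had 276, 472 and 572 CPM against 762, 638 and 512 CPM (−0.60, SE 0.18, adjusted p = 0.023) and was also higher in cycling cells of the day 12 mix. The proteoglycan core Srgn and the cathepsin Ctsw fell by 0.48 and 0.61. Gzmk, a granzyme of less mature lymphocytes, was the gene that rose (89.3, 23.3 and 95.4 CPM against 49.8, 24.1 and 16.7 CPM, log2 fold change 1.04, SE 0.33, adjusted p = 0.04), though not in the day 5 mix. It passed in 4 of the 11 alternative settings that could test it, and not with DESeq2 (adjusted p = 0.29) or without the block (adjusted p = 0.43).

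Granzymes d, e and f had their highest levels in non-cycling cells of the day 12 mix. Gzmf had 4.25, 20.7 and 203 CPM in cycling cells and 0, 6.65 and 1499 CPM in non-cycling cells, so that cycling cells were lower in the day 12 mix and higher in both other libraries. The fit gave −2.44 (SE 0.43, adjusted p = 0.00014), whereas DESeq2 gave 1.15. Gzmd (74.6 against 835 CPM in the day 12 mix) and Gzme (33.2 against 222 CPM) had the same order there, and Gzme was 0.67 without that library. Gzmc, at 1820, 866 and 1459 CPM against 1060, 306 and 2856 CPM, did not pass (0.37, SE 0.24, adjusted p = 0.39) and was −1.50 when matched on depth.

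Of 9 tested cytokine and chemokine genes, 7 were lower (4.06% of all genes outside the cell cycle lists) and none higher, with a median of −0.88, but 1 of 8 lower and a median of −0.27 when matched on depth, 5 lower with DESeq2 and 1 without the block. Ccl5, which attracts T cells and monocytes, had 2381, 5423 and 4635 CPM in cycling cells and 12714, 16006 and 7238 CPM in non-cycling cells (log2 fold change −1.60, SE 0.16, adjusted p = 1.8e-08). The classes did not overlap, but against cells of matched depth Ccl5 was 0.33, the opposite direction. Ccl4 and Ccl3 fell by 1.26 and 0.83 and were likewise 0.40 and 0.50 when matched. Xcl1, which attracts cross-presenting dendritic cells, had 719, 226 and 286 CPM against 1180, 318 and 783 CPM (−0.94, SE 0.15, adjusted p = 4.6e-05) and was −1.26 when matched. Tgfb1 and Flt3l, the growth factor of dendritic cells, fell by 0.62 and 0.88 without overlap, and Ifng did not pass (55.3, 114 and 99.5 CPM against 210, 128 and 58.0 CPM, −0.48, SE 0.28, adjusted p = 0.31).

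**Figure D4:**
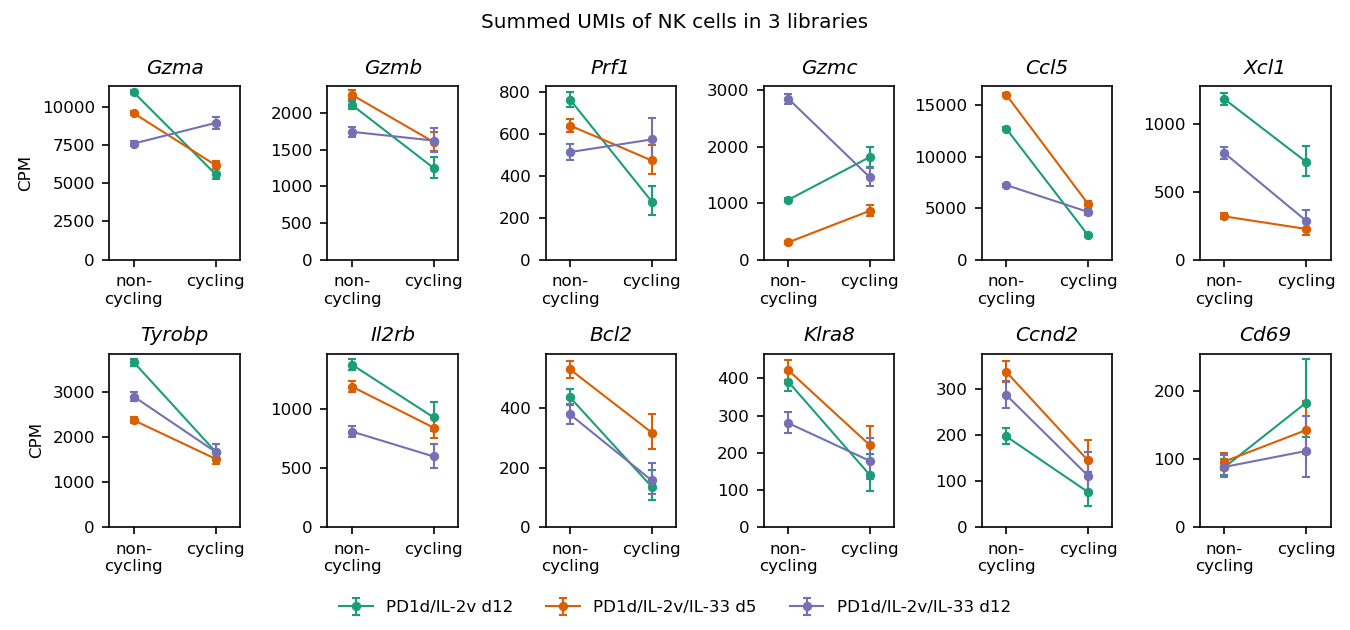
Levels in CPM (y axis, linear from 0, scaled for each gene) of 12 genes in the summed UMIs of non-cycling and cycling NK cells (x axis), with a line for each of the 3 libraries and 95% Poisson intervals as bars. Ccl5, Xcl1, Tyrobp, Il2rb, Bcl2, Klra8, Gzmb and Ccnd2 are lower in cycling cells of every library, and Cd69 is higher in every library. Gzma and Prf1 are lower in 2 libraries and higher in the day 12 mix. Gzmc is higher in 2 libraries and lower in the day 12 mix (−1.50 when matched on depth). The fitted directions of Ccl5 and Gzma also turned when matched on depth.

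Receptors for the cytokines that the transferred cells secreted were read next. Il2rb, the β chain through which IL-2v and IL-15 signal, had 927, 840 and 597 CPM in cycling cells and 1372, 1187 and 807 CPM in non-cycling cells (log2 fold change −0.57, SE 0.11, adjusted p = 0.0005), at 13.6, 8.31 and 11.1 UMIs per cycling cell against 9.28, 6.67 and 6.91. It was lower in CPM and higher per cell in every library. Il2rg fell by 0.47 (SE 0.15, adjusted p = 0.046) and the kinase Jak1 by 0.49 (SE 0.15, adjusted p = 0.03). Il2ra (CD25), the chain that IL-2v does not engage, was found in 8 of 72 cycling cells (11.1%), 4.08% of non-cycling NK cells and 37.3% of cycling CD8+ T cells, and in 2.94%, 1.90% and 11.3% with cells of the 3 libraries thinned to 2000 UMIs. At 12.8, 5.19 and 41.5 CPM it did not pass (0.41, SE 0.50, adjusted p = 0.70).

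Bcl2, a survival gene downstream of these receptors, had 136, 319 and 158 CPM in cycling cells and 437, 532 and 380 CPM in non-cycling cells (−1.21, SE 0.17, adjusted p = 4.2e-06). Its classes did not overlap, and it was −0.54 when matched on depth. The STAT5 genes and the feedback gene Cish did not pass, with log2 fold changes of −0.14 (SE 0.36) for Stat5a, −0.05 (SE 0.32) for Stat5b and −0.10 (SE 0.25) for Cish. In all, 4 of 15 tested genes of this list fell, beside 4.06% of all genes outside the cell cycle lists, and none rose. Matched on depth 1 of 11 was lower, with DESeq2 2 were and without the block none.

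Il1rl1, which encodes the IL-33 receptor ST2, gave 3 UMIs in 1 of the 72 cells. Of 6 tested genes of the IL-33, IL-18 and IL-12 receptor list only Stat4, the transducer of IL-12, passed (−0.60, SE 0.19, adjusted p = 0.034), and Il18r1 was level (−0.03, SE 0.22). Pdcd1, the receptor whose ligand the decoy binds, was found in 3 of 72 cycling NK cells (4.17%), 2.01% of non-cycling NK cells and 74.3% of cycling CD8+ T cells, and thinned in 4.41%, 0.952% and 31.9%. Cd274 (PD-L1) was found in 28 of the 72 cells (38.9%) and in 23.7% of non-cycling NK cells, and thinned in 10.3% and 10.2%. Of the inhibitory receptors, Cd244 (2B4) fell by 0.84 (SE 0.19, adjusted p = 0.0023) and 6 of 7 tested did not pass. Both lists are set beside the 4.06% of all genes called lower. Neither list had a call when matched on depth or with DESeq2.

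Few genes of metabolism passed the test. Glycolysis and nutrient transport had 3 of 16 tested genes higher, beside 6.38% of all genes outside the cell cycle lists, and a median of 0.36, among them Gapdh (412, 322 and 344 CPM against 175, 216 and 326 CPM, log2 fold change 0.56, SE 0.17, adjusted p = 0.028), Tpi1 (0.59) and the amino acid transporter Slc7a5 (1.04). Matched on depth, none of 15 glycolysis genes was higher, 1 was lower and the median was −0.18 (Gapdh −0.07, Tpi1 −0.28), and none of the 3 passed in DESeq2. Ldha, lactate dehydrogenase, did not pass (1450, 571 and 750 CPM against 717, 523 and 646 CPM, 0.40, SE 0.14, adjusted p = 0.062). Respiratory chain genes had 3 of 17 higher, beside the same 6.38%, led by Atp5g3, a subunit of ATP synthase (0.54, SE 0.12, adjusted p = 0.0017), and Uqcrh, a subunit of complex III, lower (−0.41, SE 0.12, adjusted p = 0.018). Of 15 ribosome biogenesis genes only Nop58, a nucleolar RNA-protein component, rose (0.80, SE 0.22, adjusted p = 0.016; higher in every library), a share like the 6.38% of all genes outside the cell cycle lists. No respiratory chain or ribosome biogenesis gene was higher when matched on depth, with medians of 0.0104 and 0.12.

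Among early response and interferon-stimulated genes, 1 of each list was lower, a count near the 4.06% of all genes, and DESeq2 and the fit without the block called none. Nr4a2 was −0.59 and the antiviral membrane protein Ifitm3 −1.50, and no gene of the lists (13 and 10 tested) rose. Matched on depth, 4 of 7 interferon-stimulated genes were lower, beside 164 of all 3051 genes tested in that fit. Their median was −0.99 against −0.37, and no early response gene passed.

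Among called genes outside the cell cycle lists with the same direction in each library, those with the 10 highest fitted values were Mxd3, Espl1, Ska1, Kif4, Sgol1, Shcbp1, Neil3, Cep55, E2f7 and Kif22, most of them with roles in mitosis, DNA repair or E2F control and so tied to the gate as the cell cycle lists are. Mxd3, a MAX-binding repressor, had 46.8, 49.3 and 24.9 CPM in cycling cells and 0 in non-cycling cells. Against a group near 0 the fitted fold change depends on the prior count, and neither size nor order is read from it. The 10 lowest were Cxcl2, Il1b, Tcp11l2, Ly6c2, Ptgs2, Hid1, Kdm5b, Fcrl6, Rnasek and Zfp329.

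Cxcl2, a neutrophil-attracting chemokine, had 12.8, 2.59 and 0 CPM in cycling cells and 19.5, 174 and 109 CPM in non-cycling cells (−4.57, SE 0.54, adjusted p = 2.8e-07). Il1b, an inflammatory cytokine of myeloid cells, had 4.25, 7.78 and 0 CPM against 66.5, 98.5 and 15.2 CPM (−3.85, SE 0.48, adjusted p = 6.7e-07). Myeloid markers moved with them. The macrophage and monocyte list summed to 7 UMIs in the 72 cells (4 of 11 genes, most abundant Cd68, the other 7 at 0), that is 17.0, 5.19 and 4.15 CPM in the 3 libraries against 36.1, 97.3 and 29.7 CPM in non-cycling cells. Neutrophil markers summed to 6 UMIs (2 of 5 genes, most abundant S100a9) and 6.42 CPM against 22.2 CPM, and their part in the Cxcl2 and Il1b values was not tested. Over all libraries, dendritic cell markers summed to 120 CPM against 159 CPM. Nearly all of it was Itgax (108 of 112 UMIs), with 5 of 7 genes at 0. In the 3 libraries they stood at 76.5, 156 and 112 CPM against 204, 128 and 141 CPM, higher in cycling cells of the day 5 mix.

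The 4 cycling NK cells of untransduced day 5 were too few for the fit. Their summed UMIs gave 192 CPM of Birc5 (in 2 of the cells) against 2.69 CPM in that library's non-cycling NK cells, and 275 CPM of Pcna against 41.9 CPM. Ccl5 was 4737 CPM against 10130 CPM, Tyrobp 1428 against 2962 CPM and Bcl2 165 against 456 CPM, whereas Gzma was 9213 against 9071 CPM. Of these cells 3 were among those with the highest doublet scores.

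The difference between cycling and non-cycling cells was then set against that in CD8+ T cells of the same 3 libraries. Among 8813 genes, gate genes left out, 2 (0.0227%) had an interaction past an adjusted p of 0.05, both higher in NK cells, and 0 (0%) were lower, while 412 had an unadjusted p under 0.05. DESeq2 called 3 higher and 0 lower. Kif15 had 76.5, 114 and 62.2 CPM in cycling NK cells and 1.66, 0.831 and 0 CPM in non-cycling NK cells, whereas CD8+ T cells had 76.3, 63.9 and 69.8 CPM in cycling and 23.9, 14.5 and 13.2 CPM in non-cycling cells. The wider gap between the lineages was in the non-cycling cells, where Kif15 was near 0 in NK cells only. The fitted interaction was 4.48 on the log2 scale (SE 0.54, adjusted p = 0.00099). Its size depends on the prior count, since non-cycling NK cells were near 0, and is not read as a fold.

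Tk1, the thymidine kinase of S phase, had 200, 122 and 108 CPM in cycling NK cells and 2.91, 2.08 and 3.63 CPM in non-cycling NK cells, against 160, 72.2 and 97.9 CPM and 12.2, 9.51 and 8.27 CPM in CD8+ T cells. Its fitted interaction was 2.33 (SE 0.37, adjusted p = 0.023), likewise against low non-cycling NK levels. Both are cell cycle genes, so the fold change within NK cells is tied to the gate, which was the same for both lineages. In the main fit, no other gene's cycling difference was told apart between NK and CD8+ T cells at this depth. That fit did not pair cycling and non-cycling cells of a lineage within a library, which can also limit calls. Some alternative fits called further genes, as counted below. The plot of the fold changes in the lineages shows where the listed genes fell.

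**Figure D5:**
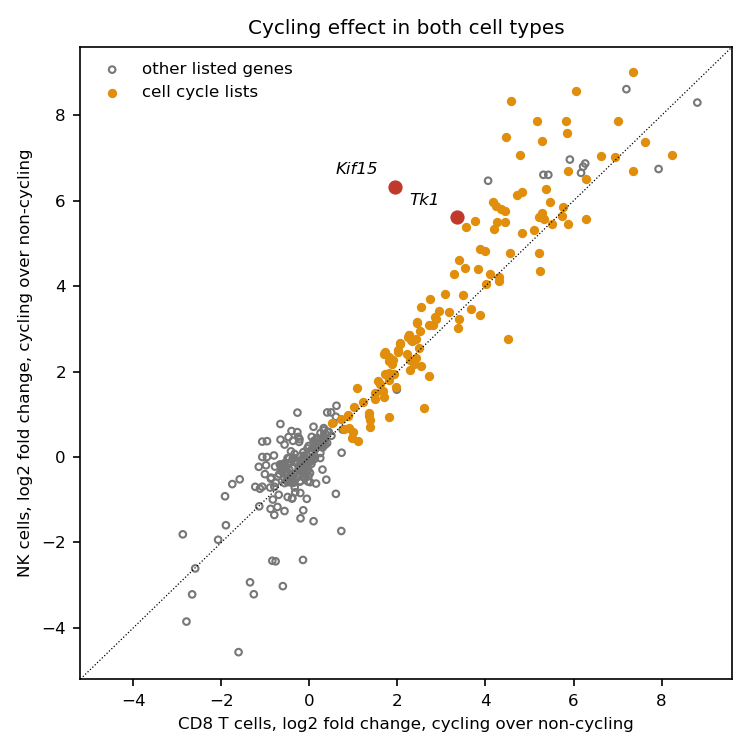
Log2 fold change of cycling over non-cycling cells in CD8+ T cells (x axis) and in NK cells (y axis), fitted on the same 3 libraries, for 126 cell cycle genes (orange) and 209 other named genes (grey), with the dotted diagonal marking equal change. Kif15 (1.95 in CD8+ T cells, 6.33 in NK cells) and Tk1 (3.34 and 5.61), in red, are the genes whose interaction passed.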

How the data were processed

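The deposited matrix holds raw UMI counts per gene and cell barcode, which the authors made with Cell Ranger for 5′ gene expression after bcl2fastq. The submitters' processing notes give Cell Ranger 2.2.0 and GRCm38, and the study's methods give a later Cell Ranger version. The library of each barcode came from its suffix and the aggregation table. Cells had 500–6000 genes, 2000–40000 UMIs, 5–60% Rps and Rpl UMIs and under 10% mt- UMIs. CD8+ T cells were gated on Cd3 and Cd8b1 without Ncr1.

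UMI counts were summed per library and class in Python 3.11.15 and tested with edgeR 4.0.16 (R 4.3.3; quasi-likelihood test, TMM, filterByExpr, library as block, Benjamini-Hochberg over all genes). The interaction was fitted on 12 sums of cycling and non-cycling NK and CD8+ T cells. Its terms were library, lineage, cycling and lineage by cycling. It had no term of library by lineage, so the classes of a lineage were not paired within a library. In the NK comparison, cycling and non-cycling cells of a library share animals, which is what pairs them. With 1 library per condition no test between conditions was made. CPM is UMIs per 1000000 UMIs of a class. Shares have Clopper-Pearson and CPM Poisson 95% intervals, and a count of 0 allows 3 counts. UMI totals per library were 1387032–24917112. Thinning drew 2000 UMIs per cell without replacement. Doublets were scored with Scrublet in scanpy 1.11.5 and not removed.

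On simulated data for the NK comparison (7125 genes) 46% of 2-fold and 96% of 4-fold changes were recovered with 0 false calls. For the interaction (8821 genes) 36% and 91% were recovered with 2 false calls. Each simulation gave all genes 1 dispersion (0.0149 and 0.0174) and each gene 1 mean over libraries. It changed 200 genes and held no difference of the cycling effect between libraries. Its rates of recovered and false calls therefore need not hold for the real data. Alternatives were other normalization, DESeq2 1.42.0, no filter, no block, leaving out each library, thinning, matched depth and other gates. The members and gene lists were chosen with earlier results of these data known. Named genes are those of the lists, the 10 highest and 10 lowest genes with the same direction in each library, and interaction calls. Sequences are RefSeq windows matched by symbol. The RefSeq promoter table is on GRCm38.p6, and no other genome was used.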

Additional observations from a re-analysis of the deposited data

Results flagged for a closer look

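The difference between cycling and non-cycling cells was larger in NK cells than in CD8+ T cells for 2 genes in the test of the interaction itself. Kif15 had a fitted interaction of 4.48 on the log2 scale and Tk1 of 2.33, each higher in 3 of 3 libraries, and the sizes depend on the prior count because non-cycling NK cells held few UMIs of these genes. Kif15 lost its call when day 5 of the PD1d/IL-2v/IL-33 mix was left out and with cells thinned to 2000 UMIs. Tk1 lost its call under those settings, without the PD1d/IL-2v day 12 library and without the block.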

How the results depend on the processing

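The 565 genes called higher and 284 called lower became 343 and 73 with DESeq2, and 110 and 78 with each cell thinned to 2000 UMIs. They were 175 and 164 against non-cycling cells matched on UMIs, which also left fewer non-cycling cells and 3051 genes to test. The fit without the replicate block, in which each library no longer pairs its cycling and non-cycling cells, gave 288 and 13. Without a filter on low counts 431 were lower. Leaving out 1 library gave 251–646 higher and 101–310 lower, with the least of both without PD1d/IL-2v/IL-33 day 5, which holds 39 of the cycling cells. Of the 2 interaction calls, 1 was left without the replicate block and 0 after thinning. Without a filter there were 12 higher and 11 lower, and leaving out 1 library gave 0–4 and 0–2. Cycling shares after thinning were 0 in untransduced day 5, 1.36% in PD1d/IL-2v day 12, 4.51% in PD1d/IL-2v/IL-33 day 5 and 2.49% at its day 12. With Mki67 alone, an alternative added after seeing the data, they were 9.09% in PD1d/IL-2v day 12, 13.9% in PD1d/IL-2v/IL-33 day 5 and 8.96% at its day 12, 1.54% in non-treated mice, 2.33% and 2.38% in untransduced days 5 and 12, 2.38% in PD1d/IL-33 and 0 in PD1d/IL-2v/IL-33 day 26. Without the highest doublet scores untransduced day 5 had 0.262%. Directions turned against matched cells for Ccl3 (0.50), Ccl4 (0.40), Ccl5 (0.33), Gapdh (−0.0656), Gzma (0.17), Gzmc (−1.50), Klrb1c (0.0762) and Tpi1 (−0.28). They also turned for Gzmf with DESeq2 (1.15) and, over the leaving out of 1 library each, for Gzme (−2.75 to 0.67, highest without PD1d/IL-2v/IL-33 day 12), Fos (−1.09 to 0.64, lowest without PD1d/IL-2v day 12) and Ifitm1 (−3.12 to 1.01, lowest without PD1d/IL-2v/IL-33 day 5). The cause was not tested. Among the alternative values of 194 called named genes, 2023 kept direction and call, 295 lost the call and 9 turned. The 194 include 35 S phase, 43 G2/M, 15 histone and 26 other cell cycle genes, all tied to the gate. The tally is therefore no measure of how stable the other calls are. The planned minimum of 20 cells per class was not run, since only 1 library reaches it, and the planned comparison of genes between libraries had 0 pairs at that minimum and 2 with at least 10 cells. The depth of 13 to 39 cycling cells per library limits calls for genes of low count.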

Other observations

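With the minimum lowered to 10 cycling cells after the data were seen, cycling NK cells could be set side by side between libraries, as values with no test. Log2 ratios are of CPM with 10 CPM added to each. Genes were ranked if they had at least 50 UMIs in both libraries together. Between the day 12 libraries of PD1d/IL-2v/IL-33 and PD1d/IL-2v, 1309 genes had enough UMIs, and the median log2 ratio was −0.23. The highest was Gzmf (203 against 4.25 CPM, log2 ratio 3.90, and 7.24 in non-cycling NK cells), followed by the metallothionein Mt1 (3.81), Kdm6b, Rel and mt-Nd3. The lowest were the heat shock gene Hspa1a (−3.98), Cd7 (78.8 against 842 CPM, −3.26), Fos, Hist1h1b and Klf2. Between days 12 and 5 of PD1d/IL-2v/IL-33, 1680 genes were compared, and Gzmf (2.79), Spp1 (2.69), Rel, Mt1 and Lgals3 were highest at day 12. Ccr7, below the minimum of UMIs (23 against 1), had 3.06 in this pair. With cells thinned to 2000 UMIs, Gzmf was 1.08 and 0.50 in the pairs, Rel 3.12 in both, and Mt1 2.76 and 2.97. Thinned values rest on few UMIs, and the 10 CPM added sets them where a library has none. No order is therefore read from them, and whether Gzmf stays at the top at 2000 UMIs per cell is not settled. Hspb1 (−3.74), Ccl4 (−2.76), Klf2, the helicase subunit Mcm4 and the spindle gene Tacc3 were lowest between days 12 and 5. With a minimum of 20 UMIs, 6 of the 10 named genes of the first pair and 5 of the second stayed among the highest and lowest. The pairs share the day 12 library of PD1d/IL-2v/IL-33. Handling of these single libraries cannot be told apart from treatment or day.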
